A study of Mus musculus with 7 samples.

Results

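Forkhead factors are DNA-binding proteins that share a winged-helix domain, and 9 of them with known roles around the eye and eyelid are described here: Foxc1, Foxc2, Foxl2, Foxe3, Foxf2, Foxd1, Foxp1, Foxp2 and Foxp4. They were taken by gene symbol from the 47729 genes of the deposited table, each symbol naming 1 row, and not by any measured value. Their levels were measured by RNA sequencing in surface ectoderm of mouse embryos at E12.5, in 3 wild type libraries (replicates 2 to 4) and in 4 libraries from miR-205 knockout embryos (replicates 1 to 4). Frozen, hematoxylin-stained head sections were cut by laser from the ectoderm lying between eye and brain, and each library pooled 3 embryos, so the spread between libraries is a spread between pools. The labels name neither the strain nor the knockout allele, and a wild type library that the submitters set aside (replicate 1) was not analysed here. The libraries held between 8903523 and 12504790 counted reads.

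In the head, Foxc1 and Foxc2 act mainly in neural crest and the mesenchyme around the eye, where mouse and human mutants of Foxc1 show defects of the anterior eye, and mouse Foxc1 is also needed for lacrimal gland development. Foxl2 is best known in the eyelid mesenchyme and the ovary, and human FOXL2 mutations narrow the eyelid opening. Foxe3 is a lens factor, Foxf2 a factor of craniofacial mesenchyme and of pericytes, and Foxd1 a factor of the temporal retina and of stroma. Foxp1, Foxp2 and Foxp4 are close relatives that bind DNA as dimers, with each other or alone, and mostly repress. miR-205 is a microRNA of stratified epithelia that lowers messages carrying a match to its seed, bases 2 to 8 of its sequence.

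None of the factors carried a full seed match, so the sequences that show how near each came are given first. The mature microRNA lies on chromosome 1 (GRCm38.p6, RefSeq, chr1:193507503-193507524, minus strand), with its seed in capitals:
miR-205-5p: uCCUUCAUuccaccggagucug
The seed match in a message is ATGAAGG, a shorter 7-base match with a trailing A is TGAAGGA, and their shared core of 6 bases is TGAAGG. On the message strand of the longest 3′ UTR annotated for a gene (GENCODE M21, GRCm38), 0 of 8 of the factors held either 7-base match, against 22.4% of the 13541 tested genes with a 3′ UTR. No 3′ UTR of at least 30 nt was annotated for Foxe3. The core of 6 bases occurred in 4 of the 8, against 38.6% of those tested genes, counting longer matches. These shares were not adjusted for length. Of the 4, Foxd1, Foxp2 and Foxp1 have 3′ UTRs of 3315, 3956 and 4752 nt, and Foxf2 one of 758 nt. The median over the tested genes was 1239 nt. Upstream of the 3′ UTR, in the same transcripts, Foxc1 held 1 match of the form with the trailing A, and 0 of the 8 held ATGAAGG. Each site below is shown with its surroundings, 30 bases in all on the strand of the message, with the core in capitals:
Foxf2, chr13:31630648-31630677, plus strand: ggacagaggcctTGAAGGccactctgctct
Foxd1, chr13:98358073-98358102, plus strand: gcatggcactccTGAAGGtagacttgtgca
Foxd1, chr13:98358773-98358802, plus strand: accccttttcttTGAAGGcaaacagaagga
Foxp2, chr6:15438034-15438063, plus strand: gacacctcagtgTGAAGGgacatatcactg
Foxp1, chr6:98929080-98929109, minus strand: gcaccttacaccTGAAGGtccccacacggg
Foxp1, chr6:98927533-98927562, minus strand: ggcaatgacttcTGAAGGtttgctctgctt
Among 34 other forkhead genes with an annotated 3′ UTR a single one, Foxo1, held ATGAAGG (2.94%), against 12.4% of the tested genes with a 3′ UTR. Either 7-base match occurred in 4 of the 34 (11.8%). Foxo1 also held TGAAGGA, and its ATGAAGG is shown with the match in capitals for comparison:
Foxo1, chr3:52348475-52348504, plus strand: attagttaaaaATGAAGGcagtaaacttgg
Foxo1, a factor held in the cytoplasm by AKT signalling, averaged 444 ± 73.3 normalized counts in the wild type libraries (SD, n = 3) and 443 ± 53.6 in those of the knockout (SD, n = 4), and its log2 difference was 0.00 (SE 0.15). These matches describe letters in the annotated 3′ UTRs, and no binding was measured.

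Several of the genes lie near relatives without overlapping them. Foxc1 (ENSMUSG00000050295) lies on chromosome 13 from 31806633 to 31812476 on the plus strand, 175.2 kb from Foxf2 (ENSMUSG00000038402, chromosome 13 from 31625816 to 31631403, plus strand). Foxc2 (ENSMUSG00000046714) lies on chromosome 8 from 121116171 to 121118895 on the plus strand, between Foxf1, 28.0 kb away, and Foxl1, 9.0 kb away. Foxl2 (ENSMUSG00000050397, chromosome 9 from 98955288 to 98958543, plus strand) overlaps the antisense gene Foxl2os by 12 bases. Foxd1 (ENSMUSG00000078302) is on chromosome 13 from 98354242 to 98359305 on the plus strand, and Foxe3 (ENSMUSG00000044518, chromosome 4 from 114925147 to 114926013) is encoded by the minus strand. Foxp1 (ENSMUSG00000030067, chromosome 6 from 98925338 to 99522721, minus strand), Foxp2 (ENSMUSG00000029563, chromosome 6 from 14901349 to 15441977, plus strand) and Foxp4 (ENSMUSG00000023991, chromosome 17 from 47867133 to 47924645, minus strand) are long genes with many annotated isoforms. Coordinates are those of GRCm38 in GENCODE M21. Whether the counting used strand is not given, so reads of Foxl2 and Foxl2os in their overlap cannot be told apart.

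Per kb of annotated exon, Foxc2, Foxc1 and Foxp1 were the most abundant of the group in wild type. The level, in normalized counts (reads divided by 1 size factor per library) per kb, was 239 ± 45.9 for Foxc2, 227 ± 43.6 for Foxc1 and 177 ± 10.2 for Foxp1 (SD, n = 3). The ranges of Foxc2 and Foxc1 overlapped, as did those of Foxc1 and Foxp1, so their order was not resolved. Foxp4 followed at 106 ± 21.3 per kb, below each of them and above each gene further down in every wild type library. Foxp2 at 36.0 ± 3.44, Foxl2 at 30.7 ± 6.62 and Foxd1 at 27.5 ± 8.04 per kb had overlapping ranges in that order. Foxf2 had 5.33 ± 1.69 per kb, and Foxe3 was close to 0. In knockout the same 3 genes were on top, Foxc1 at 218 ± 12.4, Foxc2 at 203 ± 56.8 and Foxp1 at 157 ± 17.4 per kb (SD, n = 4). There Foxd1, at 38.9 ± 2.23 per kb, stood above Foxl2, at 23.4 ± 5.01, without overlap, while the ranges of Foxl2 and Foxf2, at 19.3 ± 14.7, overlapped. Exons of all isoforms were joined for these lengths, so levels per kb of Foxp1 and Foxp2, whose joined exons span 13.75 and 16.35 kb, are underestimates if shorter isoforms prevail. In bulk RNA, fewer cells of a type and less RNA per cell cannot be told apart.

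**Figure D1:**
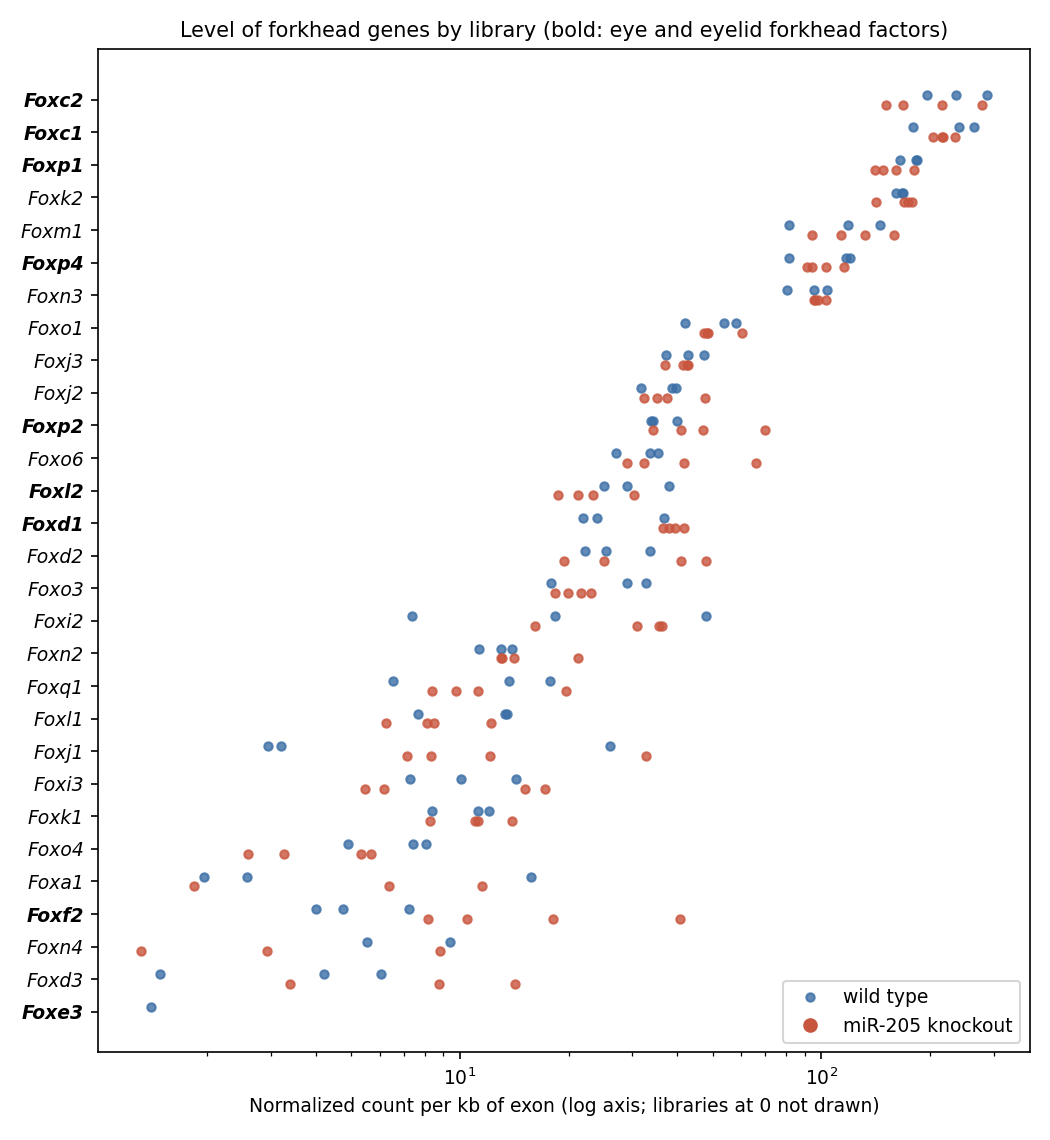
Level of each forkhead gene in each library, in normalized counts per kb of annotated exon on a log axis, with wild type libraries in blue and knockout libraries in red; libraries at 0 are not drawn, and of the other forkhead genes only tested ones are, with some left out. The genes described here are in bold, and of these Foxc2, Foxc1 and Foxp1 stand at the top, at wild type means of 239, 227 and 177 per kb. Foxk2, not in bold, had means of 165.5 in wild type and 165.8 in knockout, and its range overlapped that of Foxp1 in both groups.

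Loss of miR-205 was compared with wild type to ask whether any of these factors was higher or lower without the microRNA. None of the 8 factors with a mean of at least 10 normalized counts passed an adjusted p of 0.1 (limma-trend on log2(normalized count + 1), Benjamini-Hochberg over 15029 genes). That is also so for all genes, of which 0% passed. Of the 8, 3 had a log2 difference above 0 (Foxf2, Foxd1 and Foxp2) and 5 one below 0 (Foxl2, Foxc2, Foxp1, Foxp4 and Foxc1), against 51.7% of all tested genes above 0. Their median log2 difference was -0.05, beside 0.01 over all genes tested. Foxf2 and Foxd1, both with higher means in knockout, had an unadjusted p under 0.05, that is 2 of 8, against 9.77% of all tested genes (5.44% higher and 4.34% lower in knockout). That number was 0 within the 4 libraries with the most reads, without wild type replicate 3 and without knockout replicate 2. It was 1 without wild type replicate 2 or 4, and 3 without knockout replicate 4. The genes changed as well. Without knockout replicate 4 they were Foxf2, Foxp1 and Foxc2, with Foxp1 and Foxc2 lower in knockout. Without knockout replicate 1 they were Foxd1 and Foxp2. Of the 8 factors, with all 7 libraries, Foxf2 alone had groups that did not overlap, with knockout higher. That compares with 4.7% of all tested genes on that side, 5.22% on the other and 9.92% on either. By edgeR's quasi-likelihood test on recovered reads, 0 of the 8 passed an adjusted p of 0.1, against 0% of all genes, and by DESeq2 0 of the 8 passed, against 1.52%. Foxf2 and Foxd1 were also the 2 of 8 with an unadjusted p under 0.05 by either tool, against 9.44% of genes by edgeR and 10.2% by DESeq2. The authors' deposited table gives an adjusted p to 7 of the 9, and 0 of these passed 0.1, against 2.83% of its genes. In that table Foxf2 has a log2 fold change of 1.15 with an unadjusted p of 0.00545 (the authors' DESeq2 test) and no adjusted p. Foxd1 has 0.46 there, with an unadjusted p of 0.0285 and an adjusted p of 0.298 by the same test. The other factors have an unadjusted p above 0.05 in it.

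**Figure D2:**
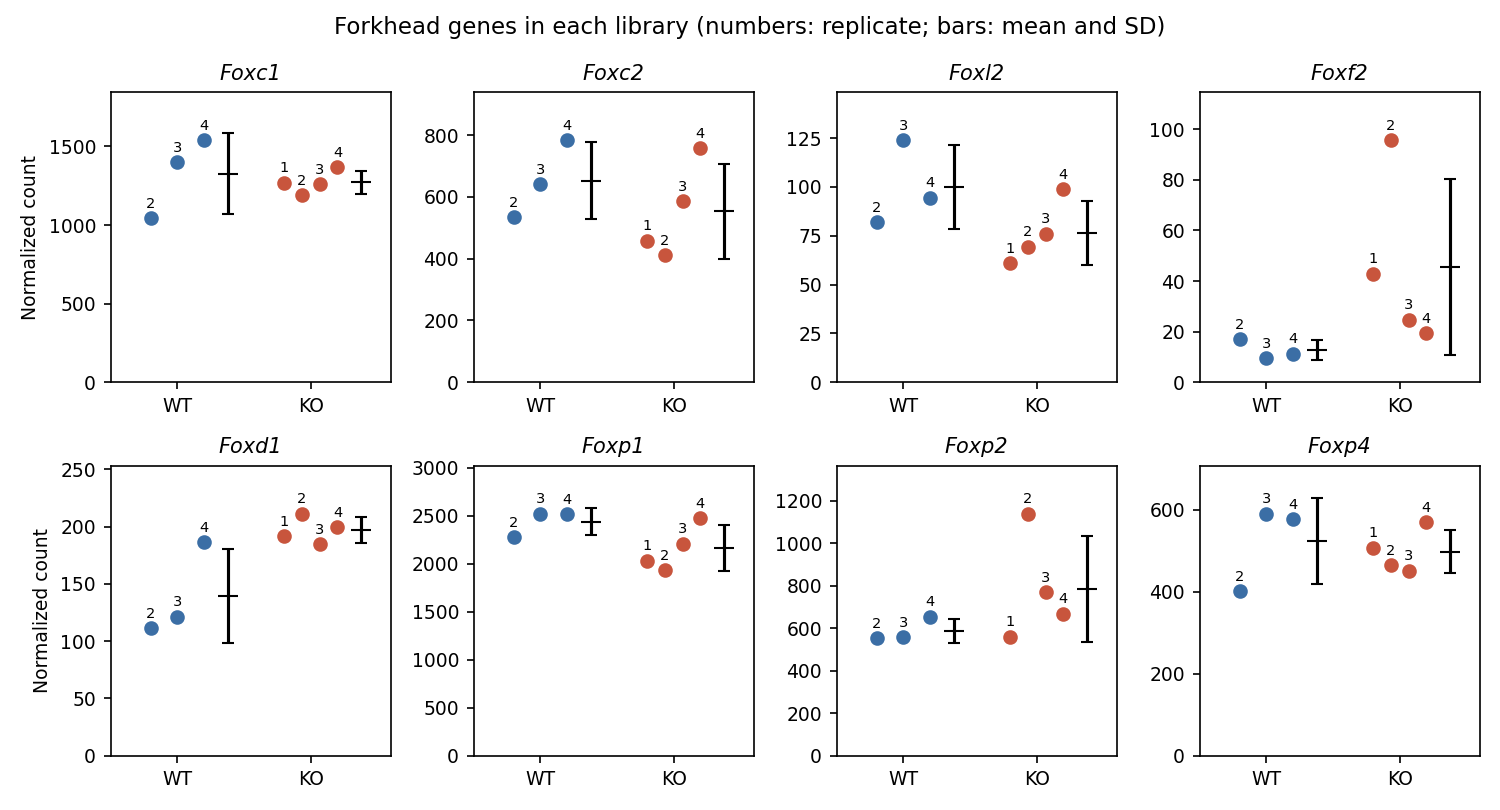
Normalized count of the 8 tested factors in each library, 1 panel per gene with its own axis from 0. Points carry the replicate number, and the black bars give mean and SD of each group. The 4 knockout libraries of Foxf2, from 19.25 to 95.6, lie above the 3 of wild type, from 9.46 to 17.1, and in each other panel the groups overlap.

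Foxf2 had the largest difference of the group and the fewest reads of those tested. Its normalized counts were 17.1, 9.46 and 11.2 in wild type replicates 2, 3 and 4, and 42.9, 95.6, 24.75 and 19.25 in knockout replicates 1 to 4. These rest on 14, 11 and 12 reads in wild type and 38, 87, 28 and 22 reads in knockout. Every knockout library was above every wild type library, and knockout replicate 2 was highest. The means were 12.6 ± 4.00 for wild type (SD, n = 3), beside 45.6 ± 34.8 for knockout (SD, n = 4). The log2 difference was 1.54 (SE 0.58), its 95% interval ran from 0.26 to 2.83, and the adjusted p was 0.449. Without knockout replicates 1 and 2, the libraries with the lowest summed ectoderm markers, the log2 difference was 0.79, and within the 4 libraries with the most reads (wild type replicates 3 and 4, knockout replicates 3 and 4) it was 1.01. The 3 shallower libraries include a single wild type one and gave no value of their own for any gene here.

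Summed markers of several other cell types are given beside Foxf2. The 12 endothelium markers, tested in full and each above 0 somewhere, summed to between 1037 and 1266 normalized counts in wild type and between 1196 and 3399 in knockout, and 12 of the 12 had higher means in knockout. Egfl7 and Plvap were the most abundant, at 228 ± 25.4 and 123 ± 16.2 for wild type (SD, n = 3), beside 279 ± 38.2 and 251 ± 144 for knockout (SD, n = 4). Knockout replicates 2, 1, 3 and 4 stood in that order for Foxf2, for these markers and for the macrophage and skeletal muscle markers below. The endothelium sum of knockout replicate 4, at 1196, lay below that of wild type replicate 2, at 1266, unlike Foxf2. Taken singly, 4 of the 12 endothelium markers had groups without overlap and knockout higher, like Foxf2, against 4.7% of all tested genes. Those of mesenchyme, 12 genes of which 9 had higher means in knockout, summed to between 18114 and 21891 in wild type and between 19417 and 29538 in knockout, with knockout replicates 1 and 2 highest and wild type replicate 4 above knockout replicates 3 and 4, unlike Foxf2. Col3a1 and Col1a2 were the most abundant, at 4777 ± 742 and 3658 ± 314 in wild type. The 6 pericyte markers summed to between 712 and 905 in wild type and between 714 and 997 in knockout, with knockout replicate 2 highest, and 4 of the 6 had higher means in knockout. Their most abundant gene, Notch3, had 544 ± 89.0 and 520 ± 77.3 in the 2 groups. Cspg4, named after its values were seen, had means of 41.6 and 88.8, and only this gene of the 6 had groups without overlap. Macrophage markers, 9 of 9 with higher means in knockout, summed to between 352 and 1002 in wild type and between 769 and 1591 in knockout. Skeletal muscle markers, 9 of 10 with higher means, reached 11635 in knockout replicate 2 and between 67.1 and 3001 elsewhere. Groups without overlap and knockout higher were found for 1 of the 12 mesenchyme, 1 of the 9 macrophage and 0 of the 10 skeletal muscle markers. The part of these cell types in the Foxf2 values was not tested.

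Foxd1 had the second smallest p of the group and an evenly high level in knockout. Wild type replicates 2, 3 and 4 had 111, 121 and 186 normalized counts, and knockout replicates 1 to 4 had 192, 211, 185 and 199.6. The groups met at a single point, where wild type replicate 4 lay just above knockout replicate 3. The means were 139 ± 40.7 (SD, n = 3) and 197 ± 11.3 (SD, n = 4), a log2 difference of 0.53 (SE 0.21, 95% interval 0.06 to 1.00) with an adjusted p of 0.471. Without wild type replicate 4 the log2 difference was 0.76, with an adjusted p of 0.585, and within the 4 deeper libraries it was 0.35. Markers of retina and optic stalk, 11 genes of which 8 were tested and none was at 0 in all libraries, summed to 537, 399 and 2487 in wild type replicates 2 to 4. The most abundant of them was the pigment gene Pmel, at 712 ± 858 for wild type (SD, n = 3), beside 735 ± 341 for knockout (SD, n = 4), followed by Lhx2 at 110 ± 50.5 and 273 ± 272. In knockout replicate 1 Lhx2, at 653, exceeded Pmel, at 228, so the sums follow different genes in different libraries. In knockout replicates 1 to 4 they summed to 1155, 1532, 1002 and 1323, and the 4 knockout libraries stood in the same order for these markers and for Foxd1. Wild type replicate 4 had the highest level of both within its group. Its marker sum was the highest of all libraries, while its Foxd1 level lay below knockout replicates 1, 2 and 4. Wild type replicate 2 had a higher sum than wild type replicate 3 and a lower Foxd1 level. The part of these cells in the Foxd1 values was not tested.

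**Figure D3:**
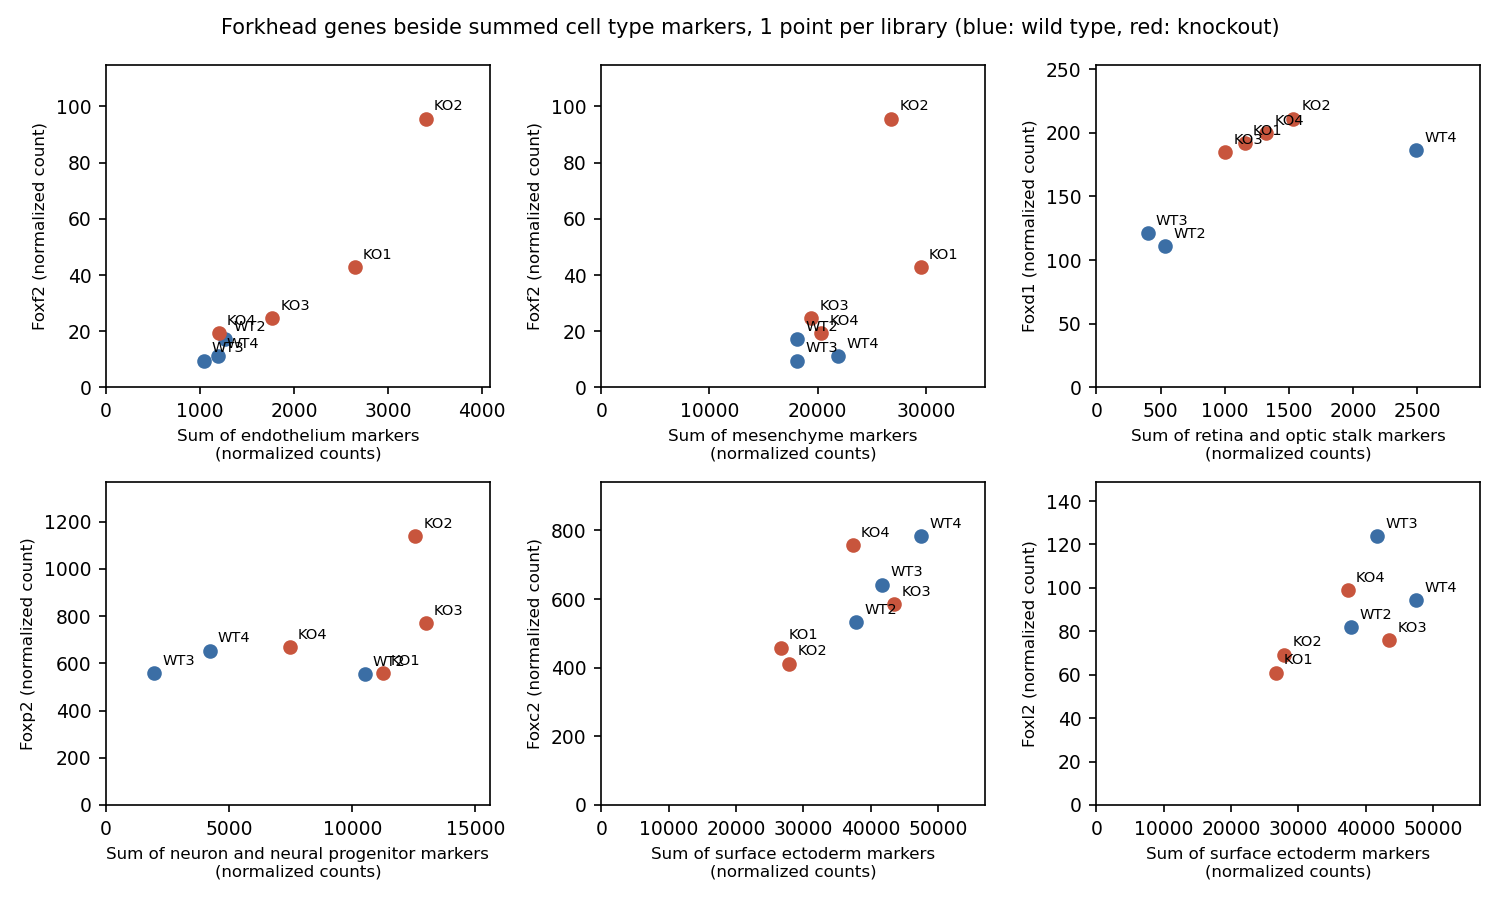
Normalized count of 5 factors against the summed normalized counts of a marker list, 6 panels with 1 point per library, wild type in blue and knockout in red. Foxf2 and the endothelium sum are both highest in knockout replicate 2, at 95.6 and 3399. Foxd1 is lowest in wild type replicates 2 and 3, the libraries with the lowest retina sums, 537 and 399. Wild type replicate 4 has the highest retina sum, 2487, with Foxd1 at 186, below knockout replicates 1, 2 and 4.

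The 3 Foxp factors did not share a direction. Foxp2, known from neurons and also expressed in several epithelia, stood at 554, 559 and 654 normalized counts in wild type replicates 2 to 4. Knockout replicates 1 to 4 had 560, 1139, 771 and 669. Knockout replicate 2 was highest, while knockout replicate 1 lay among the wild type libraries. The means were 589 ± 56.3 (SD, n = 3) and 784 ± 251 (SD, n = 4), with a log2 difference of 0.37 (SE 0.21, 95% interval -0.11 to 0.85, adjusted p 0.579). Without knockout replicate 2 the log2 difference was 0.17. Neuron and neural progenitor markers, 13 genes all tested and all with higher means in knockout, summed to between 1958 and 10502 normalized counts in wild type and between 7459 and 12984 in knockout, led by Fabp7 and Tubb3 at 1259 ± 1713 and 1250 ± 1225 in wild type. Knockout replicate 1, with 11228, and wild type replicate 2, with 10502, had high sums of these markers and Foxp2 levels near the lowest, and the part of these cells in the Foxp2 values was not tested.

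Foxp1 was the factor with the most reads, between 1757 and 2931 per library, and the least variable of the 8 between libraries of a group. Wild type replicates 2 to 4 had 2274, 2519.9 and 2514 normalized counts, and knockout replicates 1 to 4 had 2029.6, 1931, 2207 and 2477. Knockout replicates 1, 2 and 3 lay below every wild type library, and knockout replicate 4 lay among them. The means were 2436 ± 140.4 (SD, n = 3) and 2161 ± 239 (SD, n = 4), a log2 difference of -0.18 (SE 0.09, 95% interval -0.38 to 0.03, adjusted p 0.552). Without knockout replicates 1 and 2 it was -0.06. The wild type libraries held 402, 589.8 and 576 normalized counts of Foxp4 and the knockout ones 508, 464, 451 and 569, and each knockout library lay within the wild type range. Its log2 difference was -0.05 (SE 0.155, 95% interval -0.40 to 0.29, adjusted p 0.923), and it turned to 0.04 without wild type replicate 3. The residual SD of log2 values between libraries of a group was 0.13 for Foxp1, 0.23 for Foxp4 and 0.35 for Foxp2, beside a median of 0.25 over all genes tested.

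Foxc1 varied little in knockout. Its normalized counts were 1045, 1399.7 and 1539 in wild type replicates 2 to 4 and 1270.4, 1192, 1261 and 1368 in knockout replicates 1 to 4, so that each knockout library lay within the wild type range. The log2 difference was -0.04 (SE 0.125), its 95% interval ran from -0.32 to 0.23, and the adjusted p was 0.923. For Foxc2, the wild type libraries had 533, 641 and 783 normalized counts, and those of the knockout had 458, 411, 585 and 757. Knockout replicates 1 and 2 were below every wild type library and the other two lay among them. The log2 difference of Foxc2 was -0.26 (SE 0.21, 95% interval -0.74 to 0.22, adjusted p 0.697). It was -0.09 within the deeper libraries, and without knockout replicates 1 and 2 it turned to 0.05.

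Foxl2 had the lowest mean in knockout relative to wild type among the tested factors. Wild type replicates 2 to 4 had 81.8, 124 and 94.5 normalized counts. Knockout replicates 1 to 4 had 60.9, 69.2, 76.0 and 98.9. Knockout replicates 1 to 3 lay below every wild type library, and knockout replicate 4 lay within their range. The log2 difference was -0.39 (SE 0.27, 95% interval -0.98 to 0.21, adjusted p 0.643), and -0.18 without knockout replicates 1 and 2. Its antisense neighbour Foxl2os, a noncoding transcript, stood at 91.5, 119.5 and 81.4 in the wild type libraries, with 58.7, 48.4, 72.5 and 85.8 for the knockout. The log2 difference of Foxl2os was -0.56 (SE 0.28, adjusted p 0.546). Foxl2os was named after its values were seen, and the 7 libraries overlapped between groups for both genes.

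Knockout replicates 1 and 2 had the lowest sums of surface ectoderm markers. The 14 markers, all tested and all with lower means in knockout, summed to between 37876 and 47445 normalized counts in wild type, and to 26641, 27854, 43435 and 37322 in knockout replicates 1 to 4. The same 2 libraries were lowest for Foxc2, Foxl2 and Foxp1. The other libraries did not share an order with Foxl2, since knockout replicate 3 had the second highest marker sum with Foxl2 at 76.0, and knockout replicate 4 a sum below every wild type library with Foxl2 at 98.9. The labelled tissue was present in every library by these markers, with Krt15 at 11413 ± 2208 and Krt5 at 7221 ± 994 normalized counts in wild type (SD, n = 3). Knockout replicates 1 and 2 also had the highest sums of mesenchyme markers, at 29538 and 26831. The part of the ectoderm and mesenchyme shares in the values of these factors was not tested.

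Foxe3, a lens factor, was not detectable at this depth. It had 1 read in wild type replicate 2 and 0 reads in the other 6 libraries. A count of 0 allows up to 3 reads, or between 2.58 and 3.38 normalized counts per library over those 6, which covers counting error only. The 14 lens genes summed to 6446 in wild type replicate 2 and to between 2043 and 3614 in the other libraries. Pax6 alone held between 832 and 2141 in those other libraries. Cryaa, a lens crystallin, had 2342 normalized counts in wild type replicate 2. It had 956 and 442 in knockout replicates 2 and 3, where no read of Foxe3 was counted. Cryaa was at 16.3 and 12.2 in wild type replicates 3 and 4, and at 46.3 and 137 in knockout replicates 1 and 4. Lim2 was at 0 in all libraries. The two-sided exact permutation p of Foxe3 was 0.857, and 3 against 4 libraries cannot go below 0.0571.

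**Figure D4:**
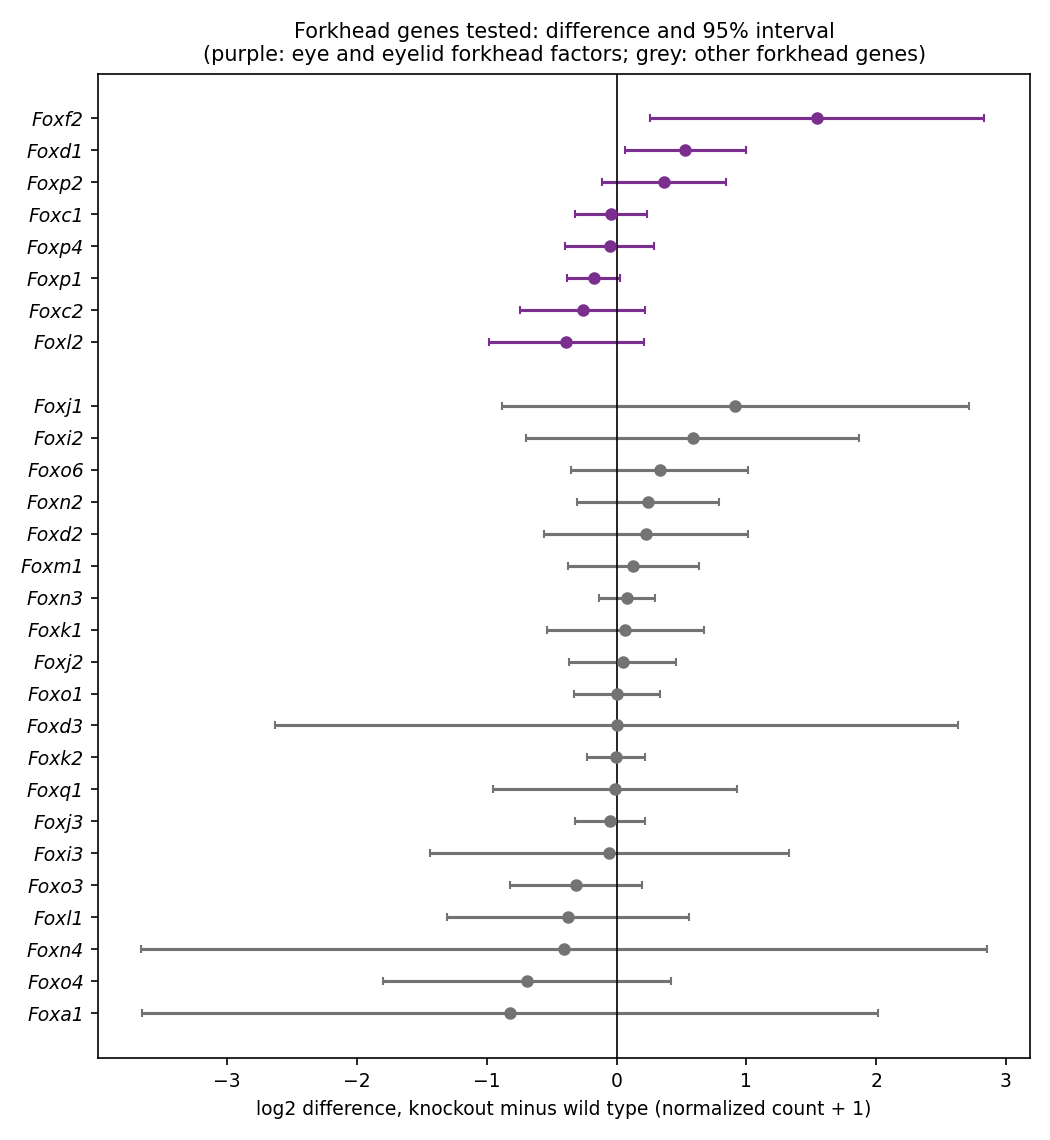
Log2 difference of each tested forkhead gene, knockout minus wild type, with its 95% interval, the 8 factors described here in purple and most other tested forkhead genes in grey. Only the intervals of Foxf2 and Foxd1, from 0.26 to 2.83 and from 0.06 to 1.00, stay above 0 among the genes drawn, and neither gene passed the adjusted threshold.

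Ratios within a library do not depend on how libraries were scaled. They were computed for 5 pairs of relatives or chromosomal neighbours, chosen after the values were seen. The ratio of Foxp2 to Foxp1 was 0.244, 0.222 and 0.260 in wild type replicates 2 to 4, and 0.276, 0.5896, 0.349 and 0.270 in knockout replicates 1 to 4. The groups did not overlap, and the log2 difference was 0.54 (exact permutation p = 0.0571, the lowest possible with 3 against 4 libraries; 0.286 adjusted over the 5 ratios). Without knockout replicate 2 the log2 difference was 0.30. The ratio of Foxc2 to Foxc1 was between 0.458 and 0.511 in wild type and between 0.345 and 0.553 in knockout, with knockout replicates 1 and 2 lowest (exact permutation p = 0.40). The ratio of Foxf2 to Foxc1 was between 0.0068 and 0.0164 in wild type and between 0.0141 and 0.0803 in knockout (exact permutation p = 0.114). The ratios of Foxp4 to Foxp1 and of Foxp2 to Foxp4 had log2 differences of 0.12 and 0.42, and their groups overlapped.

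The rest of the forkhead family showed no calls either. Of 35 other forkhead genes 21 passed the filter on low values, and of these 11 had a log2 difference above 0 and 10 one below, their median being 0.00. None passed an adjusted p of 0.1, 0 had an unadjusted p under 0.05 by limma-trend, and 0 by DESeq2 or edgeR passed an adjusted p of 0.1. Over all genes, the share called at that adjusted threshold was 0% with limma-trend, 0% with edgeR and 1.52% with DESeq2. The share with an unadjusted limma-trend p under 0.05 was 9.77%. The most abundant per kb in wild type were Foxk2 at 165.5 ± 4.18, Foxm1, a factor of dividing cells, at 115 ± 32.1, Foxn3 at 93.1 ± 11.9 and Foxo1 at 51.3 ± 8.46 (SD, n = 3). The smallest p belonged to Foxo4, Foxo3, Foxj1 and Foxo6, with log2 differences of -0.69 (SE 0.50), -0.31 (SE 0.23), 0.91 (SE 0.80) and 0.33 (SE 0.31). With 1 library left out these ranged from -0.90 to -0.50 for Foxo4, -0.57 (without wild type replicate 3) to -0.14 (without wild type replicate 2) for Foxo3, 0.40 (without wild type replicate 3) to 1.89 (without wild type replicate 2) for Foxj1, and 0.09 (without knockout replicate 1) to 0.48 (without knockout replicate 3) for Foxo6. Foxj1, a factor of ciliated cells, had 68.4 normalized counts in wild type replicate 2 and 85.7 in knockout replicate 1, and between 7.74 and 31.8 elsewhere.

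None of the genes listed as working with these factors passed an adjusted p of 0.1. The same held for all 15029 tested genes (0% called), so the absence of calls does not set these lists apart. Of 13 genes of periocular mesenchyme and eyelid, 6 had higher and 7 lower means in knockout (median log2 difference -0.02), and 0 passed an adjusted p of 0.1. Bmp4, a signal of the eyelid and periocular mesenchyme, averaged 362 ± 39.1 normalized counts among wild type libraries (SD, n = 3) and 291 ± 55.1 among knockout ones (SD, n = 4), a log2 difference of -0.33 (SE 0.17, limma-trend adjusted p 0.552). Of 11 tested lens genes 8 had a log2 difference above 0 and 0 passed an adjusted p of 0.1. For Cryaa, Cryba1 and Crybb3, which were highest in wild type replicate 2, that difference was above 0 while the mean normalized count was lower in knockout. Pax6, which lies upstream of Foxe3 in the lens, had 1934 ± 248 and 1295 ± 425 normalized counts (log2 difference -0.63, SE 0.26, adjusted p 0.493), and the submitters name it among the markers by which they set aside a library. Sox1, a factor of lens fibres and neural progenitors, had 13.5 ± 14.8 and 39.7 ± 21.5 (2.33, SE 1.06, adjusted p 0.514). Sox1 was at 0 in wild type replicate 3, and its log2 difference was 0.91 without that library and 3.37 without wild type replicate 2. Of 10 corepressor genes that partner Foxp factors, 4 had higher and 6 lower means, and 0 passed. Gatad2b, a subunit of the NuRD complex, had 531 ± 10.8 and 428 ± 110.1 (-0.34, SE 0.17, adjusted p 0.546).

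Likeness of pattern was measured by Pearson's r of log2 values over the 7 libraries, among 13164 other named protein-coding genes. For Foxf2 the nearest genes were Ppp1r18 (r = 0.996) and Cav1 (0.988), and for Foxc2 Mbd3 (0.993) and Hmmr (0.990). Foxp1 was nearest to Meis2 (0.997) and G3bp1 (0.994), and Foxl2 to Pole4 (0.992) and Lsm8 (0.990). Foxd1 was nearest to Nfe2l1 (0.985) and Enpep (0.984), which fell to 0.713 and 0.536 without the 2 libraries farthest from the median of Foxd1. Foxc1 was nearest to Keap1 (0.984) and Per3 (0.979), Foxp4 to Tcea1 (0.979) and Txlna (0.977), and Foxp2 to Commd7 (0.967) and Lgr6 (0.961). With so few libraries the best match of a gene was usually this close, with a median best r of 0.982 over all these genes. The libraries share their depth and their mix of captured cells, so these values are a description.

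**Figure D5:**
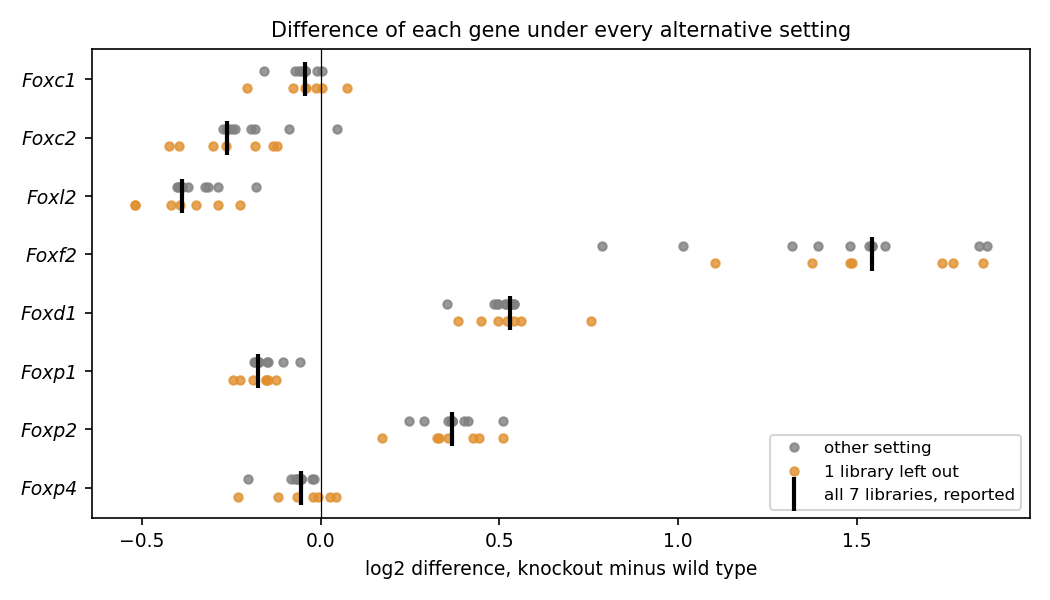
Log2 difference of each factor, knockout minus wild type, with all 7 libraries as reported (black bar), under other settings of the processing (grey) and with 1 library left out (orange). Foxf2, Foxd1 and Foxp2 stayed above 0 and Foxl2 and Foxp1 below 0 in every setting run, while Foxc1, Foxc2 and Foxp4 crossed 0.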

How the data were processed

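Surface ectoderm RNA of 3 wild type and 4 miR-205 knockout libraries was analysed. The submitters' processing notes name TopHat2 2.0.9, GRCm38, HTSeq and DESeq2 for mapping, counting per gene and testing. The signal columns are the authors' normalized counts, reads divided by 1 size factor per library. The log2 column of the deposited table is the authors' fold change, and its p-value columns are the authors' p and adjusted p.

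Reads were recovered by dividing by the smallest value above 0 in each library; 100% of values above 0 were then whole within 0.01 read. Tests used limma-trend 3.58.1 (R 4.3.3, robust) on log2(normalized count + 1). The added 1 can make differences of low genes smaller, but against count-based tests they went either way. The log2 difference of Foxf2 was 1.54 by limma-trend and 1.84 by edgeR. That of Sox1 was 2.33 by limma-trend and 1.57 by edgeR. Genes averaging at least 10 over the 7 libraries were tested, and calls were made at a Benjamini-Hochberg adjusted p of 0.1. edgeR 4.0.16, DESeq2 1.42.0, other filters, pseudocounts and scalings, a replicate block, depth as a covariate and left-out libraries were alternatives. Nothing in the labels says more of the pools' origin, so p-values measure the spread between these libraries.

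Genes, lists and tests were chosen with earlier results of these data known. Other genes named were, per list, the 2 smallest p, for other forkhead genes the 4 smallest p and the 4 highest levels per kb, and for each factor the 2 most alike in pattern. In marker lists the rule takes the 2 most abundant genes, given for the lists named in full beside a result. Foxl2os, Cryaa, Cryba1, Crybb3, Cspg4 and Lim2 fall outside these rules, and some genes the rules take are not reported here.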

Additional observations from a re-analysis of the deposited data

Results flagged for a closer look

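Foxo1 had 523 normalized counts in knockout replicate 3 and between 409.5 and 422 in the other 3 knockout libraries, a gap that was large for a group of 4. Such a gap turns up by chance in about 1 in 20 groups. Many genes, marker sums and ratios were screened for it, and only Foxo1 was flagged.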

How the results depend on the processing

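The count of eye and eyelid factors past an adjusted p of 0.1 stayed at 0 under all 19 alternatives, as did that of the other forkhead genes, while the number of these factors with an unadjusted p under 0.05 ran from 0 to 3. Over all genes the count went from 0 to 223 with DESeq2, 38 within the 4 deeper libraries, 3 with the replicate block, 3 without knockout replicates 1 and 2, 2 with the authors' filter, and between 0 and 84 when 1 library was left out (84 without wild type replicate 2). Leaving out 1 library moved Foxe3 between -0.575 and 0 on the log2 scale, 0 being without wild type replicate 2, its only library with a read. Foxf2 has no value under the authors' filter, since wild type replicate 3 lies below 10. Foxf2 ranged from 0.79 to 1.86, Foxd1 from 0.35 to 0.76, Foxp2 from 0.17 to 0.51, Foxl2 from -0.52 to -0.18 and Foxp1 from -0.24 to -0.06 on the log2 scale, each with its direction kept. Directions turned without knockout replicates 1 and 2 for Foxc1 (0.003) and Foxc2 (0.046). Leaving out 1 library gave -0.207 to 0.072 for Foxc1 (above 0 without wild type replicate 3 or 4), -0.233 to 0.043 for Foxp4 (likewise), and -0.136 to 0.102 for Foxo1 (below 0 without wild type replicate 2 or knockout replicate 3). Foxo1 was -0.007 with TMM scaling, -0.014 with edgeR, -0.004 with DESeq2 and -0.045 within the deeper libraries. The ratio of Foxc2 to Foxc1 turned to 0.07 within the deeper libraries and 0.043 without knockout replicates 1 and 2. That of Foxp4 to Foxp1 was -0.097 within the deeper libraries and -0.007 to 0.196 when 1 library was left out, the lowest without wild type replicate 2; the cause was not tested. The ratios were alternatives chosen after seeing the data.

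Samples sharing a replicate number correlated at 0.097, 0.111 and -0.011 in their deviations from the group means for replicates 2, 3 and 4, so the numbers were not taken to pair the libraries. With the replicate block Foxp2 had a log2 difference of 0.51 (limma-trend adjusted p 0.433) and Foxf2 of 1.48 (adjusted p 0.412). Depth limits Foxf2, at 11 to 14 reads per wild type library, and Foxe3 most.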
